A study of Mus musculus with 9 samples.

Results

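The 9 genes described here encode dual-specificity phosphatases (DUSPs) that switch off MAP kinases: Dusp1, Dusp2, Dusp4, Dusp5, Dusp6, Dusp7, Dusp8, Dusp10 and Dusp16. They were chosen by name and not by a measured value, but with earlier results of these data known. Each Ensembl identifier was found on 1 of the 55655 rows of the deposited expression tables. The series holds RNA-seq of mouse bone marrow-derived macrophages in 3 groups of 3 libraries. M0 macrophages were grown from the femur and tibia marrow of C57BL/6 mice aged 6 to 8 weeks in medium with 10 ng/mL M-CSF (macrophage colony-stimulating factor) for 7 days. M1 macrophages were such cells after lipopolysaccharide (LPS) and interferon-γ (IFN-γ) had been added, and M1 + PBM macrophages received the same stimuli with photobiomodulation (PBM), a treatment with laser light. All 9 libraries are labelled wild type, the M0 libraries are labelled as not treated with PBM, and the stimulated groups were examined 12 hours after induction. The study describes independent repeats of the experiment, but the labels do not tie the libraries to separate cultures or animals, so p-values measure only the spread between these libraries.

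MAP kinases are activated when a MAP2 kinase phosphorylates a threonine and a tyrosine of their activation loop, and DUSPs reverse this by removing both phosphates. Dusp1, Dusp2, Dusp4 and Dusp5 encode nuclear enzymes whose genes are themselves switched on by the signals they end, Dusp6 and Dusp7 encode cytoplasmic enzymes that prefer ERK, and Dusp8, Dusp10 and Dusp16 encode enzymes that prefer the stress kinases JNK and p38. In macrophages the best known of them is Dusp1 (MKP-1), which ends p38 and JNK signalling after LPS and so limits the output of inflammatory cytokines.

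The sequence just before the start of 4 of the genes is shown because 3 of them, Dusp1, Dusp2 and Dusp5, had the widest range of levels among the 6 M1 and M1 + PBM libraries, and the other, Dusp16, had the largest difference with PBM. Each run is the 250 bases before the start in the RefSeq promoter table of build GRCm38.p6, read 5′ to 3′ on the strand of the gene: Dusp1 at chr17:26508473-26508722 (minus strand), Dusp2 at chr2:127335909-127336158 (plus strand), Dusp5 at chr19:53528895-53529144 (plus strand) and Dusp16 at chr6:134792629-134792878 (minus strand). Capitals mark matches to motifs of inducible genes: the cAMP response element (CRE) TGACGTCA and its core TGACG, the E-box CACGTG, and the CArG box that serum response factor binds.
Dusp1: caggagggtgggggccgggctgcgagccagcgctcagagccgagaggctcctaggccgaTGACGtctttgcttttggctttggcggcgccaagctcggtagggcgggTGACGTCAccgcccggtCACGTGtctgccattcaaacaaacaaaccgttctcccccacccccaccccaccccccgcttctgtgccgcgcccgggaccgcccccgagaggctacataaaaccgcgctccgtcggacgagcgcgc
Dusp2: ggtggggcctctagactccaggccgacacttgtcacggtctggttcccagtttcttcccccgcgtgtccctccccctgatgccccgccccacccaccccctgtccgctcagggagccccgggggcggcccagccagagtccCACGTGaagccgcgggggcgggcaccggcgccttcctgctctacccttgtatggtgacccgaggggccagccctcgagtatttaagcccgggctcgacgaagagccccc
Dusp5: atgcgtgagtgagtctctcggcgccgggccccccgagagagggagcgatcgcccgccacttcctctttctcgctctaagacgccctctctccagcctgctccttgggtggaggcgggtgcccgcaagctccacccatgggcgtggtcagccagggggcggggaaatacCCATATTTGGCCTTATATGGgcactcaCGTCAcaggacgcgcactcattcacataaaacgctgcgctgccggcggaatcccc
Dusp16: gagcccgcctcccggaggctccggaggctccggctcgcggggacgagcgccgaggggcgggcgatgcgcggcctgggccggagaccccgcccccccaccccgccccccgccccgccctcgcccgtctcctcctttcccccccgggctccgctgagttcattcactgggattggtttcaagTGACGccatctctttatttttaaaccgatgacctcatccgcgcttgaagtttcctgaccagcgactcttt

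Both strands were searched, and 8 of the 9 members had a window in the table. Dusp4 was not among them. A full CRE lay 143 bases before the start of Dusp1, and Dusp8 held 2 of them, 107 and 63 bases before its start, while 1.55% of 32851 promoter windows of the same length held one. The E-box occurred in Dusp1 and Dusp2, 126 and 109 bases before the start, and in 6.02% of all windows. The CArG box occurred in Dusp5 alone among the members, 82 and 72 bases before its start, and in 1.47% of all windows. The core motif TGACG, which every full CRE contains, was present in Dusp1, Dusp5, Dusp8 and Dusp16 and in 17.8% of all windows. GC boxes (GGGCGG, not capitalised) were present in 6 members and 32.7% of all windows. The AP-1 site TGANTCA, the interferon-activated site TTCNNNGAA, the TATA box TATAAA and the κB site had no match in the 8 windows, against 6.75%, 7.02%, 12.4% and 7.25% of all windows. These matches are descriptions of letters, and no binding was measured.

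Expression was given as FPKM, fragments scaled by transcript length and library depth, so levels of different genes can be compared per length. The depth estimated from the smallest steps of the values was between 30880000 and 42000000 fragments per library. This is a rough figure, because most low values did not fall on whole reads. All 8 macrophage markers were present in every group, with a summed level of 5362 to 10209 FPKM, and the neutrophil genes Ly6g and S100a9 were listed at 0 in all 9 libraries. The 8 neutrophil markers summed to 1.42 to 2.34 FPKM in M0, 8.87 to 28 in M1 and 6.41 to 15.0 in M1 + PBM, most of it S100a8, which was at 16.7, 6.90 and 27.2 in M1, 4.94, 6.94 and 14.5 in M1 + PBM and at most 2.11 in M0. Nos2, the inducible nitric oxide synthase of M1 cells, was at 112 to 290.0 FPKM in M1 and 65.9 to 88.8 in M1 + PBM libraries. In the M0 group it was at 0.0147, 0.0133 and 1.79. The M0 library of replicate 3 stood apart from the other M0 libraries before any result is read: its 9 M1-state markers summed to 324 FPKM against 29.4 and 33.1, and its 6 stromal markers to 181 against 5.28 and 6.49. Log2 differences from M0 are therefore given also without it.

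In M0 macrophages the transcripts of Dusp4 and Dusp7 were the most abundant of the 9, at 27.6 ± 7.22 and 22 ± 2.14 FPKM (SD, n = 3), followed by Dusp1 at 15.4 ± 8.72 and Dusp6 at 10.7 ± 3.88. Neighbours among these 4 overlapped in their libraries. Below them came a step, since the lowest M0 library of Dusp6 (7.44 FPKM) lay above the highest of Dusp2 (5.13). Dusp2, Dusp5 and Dusp16 then stood at means of 3.02, 2.97 and 2.27 FPKM with overlapping ranges, and Dusp10 and Dusp8 at 1.06 and 0.891. In M1 macrophages the order by mean was Dusp1, Dusp2, Dusp4, Dusp16, Dusp7, Dusp6, Dusp5, Dusp10 and Dusp8. Only Dusp7 and Dusp6, and Dusp10 and Dusp8, did not overlap as neighbours there. In M1 + PBM macrophages Dusp7 and Dusp6 stood above Dusp16, the rest of the order was as in M1, and the steps without overlap were from Dusp16 to Dusp5 and from Dusp10 to Dusp8.

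**Figure D1:**
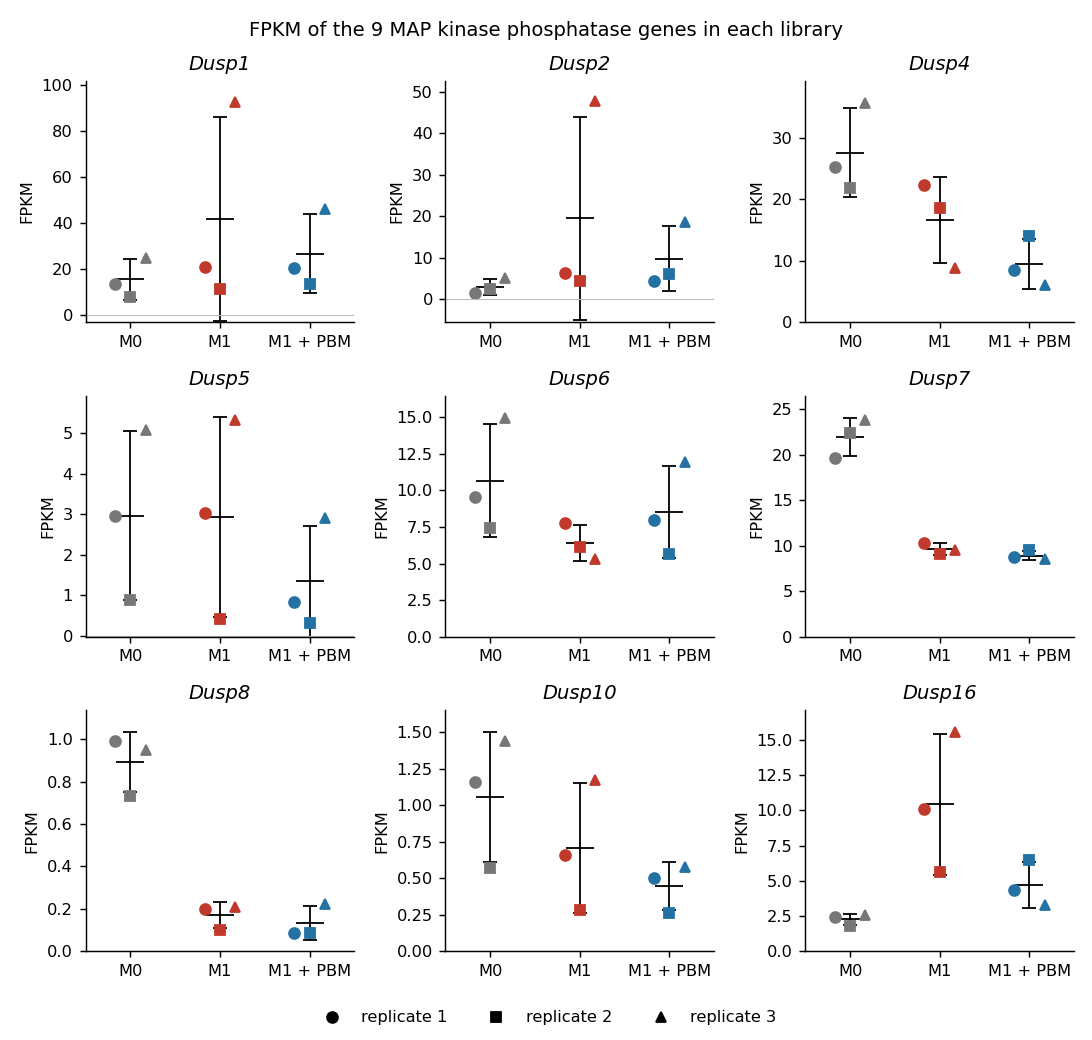
FPKM (vertical axis, each panel on its own scale from or below 0) of the 9 phosphatase genes in M0, M1 and M1 + PBM macrophages. Points are libraries with a shape per replicate number, and the black bar is the mean ± SD of 3. Dusp7 and Dusp8 lie lower and Dusp16 higher in every stimulated library than in any M0 library, and the M1 library of replicate 3 carries the highest Dusp1 and Dusp2 values, 92.5 and 47.8 FPKM.

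Next, M0 and stimulated cells were compared by level alone. The M0 libraries were deposited in a table of their own, so no test was made across the tables, and table and group cannot be told apart. The median over the 13915 genes with at least 1 FPKM in at least 3 of 9 libraries was -0.34 for M1 minus M0 and -0.27 for M1 + PBM minus M0 on the log2(FPKM + 1) scale, and each member difference is given as deposited and relative to it. Of the 9 members, 2 were lower without overlap in M1, where 50.6% of those genes were, and 1 was higher, where 15.6% were. With PBM 3 members were lower without overlap, where 46.2% of all genes were, and 1 was higher, where 15.9% were. Without M0 replicate 3 Dusp2 joined the members without overlap in both comparisons, which made 4 in M1 and 5 with PBM. The share of all genes was not computed without that library, and fewer libraries overlap less readily, so those counts have no background. With all libraries neither the lower nor the higher counts were above the background. Dusp8, among the lower, was itself under the minimum of 1 FPKM. In bulk RNA, fewer cells of a type and less RNA per cell cannot be told apart.

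Dusp16 (ENSMUSG00000030203), encoding the JNK and p38 phosphatase MKP-7, was the member that stood higher in both stimulated groups. Its FPKM was 2.45, 1.81 and 2.54 in the M0 libraries, 10.1, 5.61 and 15.5 in M1, and 4.38, 6.48 and 3.26 in M1 + PBM. Every stimulated library lay above every M0 library, and the M1 mean of 10.4 ± 4.97 was 4.59-fold the M0 mean of 2.27 ± 0.401 (SD, n = 3). The M1 + PBM mean of 4.71 ± 1.63 was 2.08-fold the M0 mean. On the log2 scale the differences were 1.71 and 0.77, or 2.05 and 1.04 relative to the median gene. Without M0 replicate 3 they were 1.78 and 0.84.

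Dusp7 (ENSMUSG00000053716) encodes a cytoplasmic phosphatase of ERK and had the tightest replicates among the members with at least 1 FPKM. It was at 19.6, 22.4 and 23.8 FPKM in M0, 10.3, 9.11 and 9.51 in M1, and 8.72, 9.50 and 8.54 in M1 + PBM. No stimulated library reached the M0 range, and the M0 mean was 2.28-fold that of M1 and 2.46-fold that of M1 + PBM. The log2 differences of -1.11 and -1.21 became -0.77 and -0.94 relative to the median gene. Without M0 replicate 3 they were -1.05 and -1.15.

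Dusp8 (ENSMUSG00000037887), a JNK and p38 phosphatase best known from brain and heart, was scarce throughout. It read 0.993, 0.730 and 0.951 FPKM in M0, 0.199, 0.0991 and 0.211 in M1, and 0.0886, 0.0872 and 0.225 in M1 + PBM. M0 lay above both stimulated groups, with log2 differences of -0.69 and -0.74 that understate the change of so low a gene, since the ratio of means was 5.25 for M0 over M1 and 6.68 for M0 over M1 + PBM. Relative to the median gene the differences were -0.35 and -0.47, and without M0 replicate 3 they were -0.67 and -0.71. By the estimated depths at most 14.8 fragments stood behind the lowest library and 158 behind the highest. Dusp9, the remaining gene for a catalytic MAP kinase phosphatase and no member here, read 2.73, 2.29 and 1.89 FPKM in M0 and between 0.115 and 0.449 in the 6 stimulated libraries.

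Dusp4 (ENSMUSG00000031530), encoding the nuclear phosphatase MKP-2, was highest in M0. It was at 25.2, 21.8 and 35.7 FPKM in M0, 22.4, 18.6 and 8.86 in M1, and 8.43, 14.0 and 6.05 in M1 + PBM. M1 replicate 1 reached into the M0 range, whereas every M1 + PBM library lay below it. The M1 + PBM difference from M0 was -1.49, or -1.22 relative to the median gene and -1.29 without M0 replicate 3, and the M1 difference was -0.76, -0.42 and -0.56 in the same order. Without M1 replicate 3 the M1 difference was -0.39.

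Dusp1 (ENSMUSG00000024190) and Dusp2 (ENSMUSG00000027368), the latter an inducible nuclear phosphatase of blood cells also called PAC-1, had higher means in the stimulated groups but wide replicates. Dusp1 was at 13.5, 7.72 and 24.9 FPKM in M0, 20.6, 11.4 and 92.5 in M1, and 20.4, 13.3 and 46.2 in M1 + PBM. Dusp2 was at 1.45, 2.48 and 5.13 in M0, 6.37, 4.34 and 47.8 in M1, and 4.35, 6.11 and 18.7 in M1 + PBM. For both genes the third library was the highest of each group. The groups overlapped because of M0 replicate 3 in the case of Dusp2: without that library every stimulated value lay above M0, with log2 differences of 2.09 for M1 and 1.64 for M1 + PBM, against 1.73 and 1.28 with it and 2.07 and 1.55 relative to the median gene. Leaving out the third library of the stimulated group instead lowered the Dusp2 differences to 0.75 for M1 and 0.72 for M1 + PBM. For Dusp1 the differences were 0.98 and 0.71, or 1.32 and 0.98 relative to the median gene and 1.38 and 1.11 without M0 replicate 3, and the groups overlapped either way. For Dusp1 in M1, leaving out M1 replicate 3 gave 0.14, leaving out M1 replicate 2 gave 1.6 and leaving out M0 replicate 2 gave 0.60. In M1 + PBM it was 0.24 without M1 + PBM replicate 3, 1.1 without M1 + PBM replicate 2 and 0.33 without M0 replicate 2.

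Dusp5 (ENSMUSG00000034765), Dusp6 (ENSMUSG00000019960) and Dusp10 (ENSMUSG00000039384) overlapped between M0 and both stimulated groups. Dusp5, encoding a nuclear phosphatase specific for ERK, was at 2.95, 0.883 and 5.07 FPKM in M0, 3.03, 0.416 and 5.33 in M1, and 0.822, 0.322 and 2.90 in M1 + PBM, so that replicate 2 was the lowest and replicate 3 the highest in each group. Dusp6, encoding the ERK phosphatase MKP-3 and widely read as a gene that follows ERK activity, was at 9.57, 7.44 and 15.0 in M0, 7.77, 6.11 and 5.33 in M1, and 8.00, 5.68 and 11.9 in M1 + PBM. The M1 libraries of Dusp6 were the most alike, and M1 replicate 3, the highest library for Dusp1, was its lowest. Dusp10, encoding the JNK and p38 phosphatase MKP-5, was at 1.16, 0.571 and 1.44 in M0, 0.660, 0.285 and 1.18 in M1, and 0.50, 0.265 and 0.580 in M1 + PBM. By the estimated depths at most 29.0 to 140 fragments stood behind its values. The log2 differences from M0, for M1 and then M1 + PBM, were -0.11 and -0.75 for Dusp5, -0.62 and -0.29 for Dusp6, and -0.28 and -0.49 for Dusp10. Relative to the median gene they were 0.23 and -0.49 for Dusp5, -0.28 and -0.024 for Dusp6, and 0.060 and -0.22 for Dusp10. Without M0 replicate 3 they were 0.28 and -0.37 for Dusp5, -0.37 and -0.040 for Dusp6, and -0.14 and -0.35 for Dusp10. When any single library was left out the difference in M1 lay between -0.57 and 0.51 for Dusp5, -0.83 and -0.37 for Dusp6, and -0.47 and -0.090 for Dusp10, so the sign for Dusp5 was not settled. In M1 + PBM it lay between -1.21 and -0.37 for Dusp5, -0.54 and -0.040 for Dusp6, and -0.67 and -0.35 for Dusp10.

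To examine the effect of PBM, M1 + PBM was compared with M1 across the 12238 genes with at least 1 FPKM in at least 3 of these 6 libraries, by limma on log2(FPKM + 1). Of the members, 7 entered the fit, and Dusp8 and Dusp10 did not reach the minimum. Dusp16 was the only one of the 7 with an unadjusted p of at most 0.05, and Dusp4 and Dusp5 were lower in every same-numbered pair. None of the 7 met the thresholds of the study (unadjusted p of at most 0.05 and a log2 fold change of at least 1 in size), which 0.261% of all genes met. Here they were applied to this limma fit. The paper applied them in its own analysis and reported more genes past them, most of them upregulated. The absence of members depended on the scale, since Dusp16 met the thresholds with a pseudocount of 0.1 (-1.07) and with median-of-ratios scaling (-1.01). None had a limma adjusted p under 0.05, against 0.00817% of all genes, which was 1 gene. An unadjusted p of at most 0.05 was held by 1 member and 4.44% of all genes, and no member separated the groups without overlap, where 11% of all genes did. The log2 fold change was negative for 6 members and positive for 1, with a median of -0.45. Over all genes 34.4% were negative and the median was 0.058, which median-of-ratios scaling moved to -0.0023 with 6 members negative there too. The 9 M1-state markers also differed between the groups, with sums of 2628 to 2947 FPKM in M1 and 1560 to 2372 in M1 + PBM, and their part in the member differences was not tested.

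Dusp16 had the largest difference, -0.94 with an SE of 0.36 (95% interval -1.81 to -0.07), a limma p of 0.0380 and an adjusted p of 0.90. The M1 mean was 10.4 ± 4.97 FPKM and the M1 + PBM mean 4.71 ± 1.63 (SD, n = 3), and the ranges overlapped because M1 replicate 2 (5.61) lay below M1 + PBM replicate 2 (6.48). The exact permutation test gave p = 0.2, where 3 against 3 libraries cannot go below 0.1. Across all genes, same-numbered M1 and M1 + PBM libraries deviated together in replicates 2 and 3 (r of 0.469 and 0.462). In replicate 1 they did so weakly (0.157). A second fit took the replicate number as a block, although the labels state no pairing. With the block the p of Dusp16 was 0.0720 (SE 0.41) by limma. It was 0.0884 without M1 replicate 1, 0.102 without M1 replicate 3, 0.0871 without M1 + PBM replicate 1 and 0.114 without M1 + PBM replicate 3. Leaving out M1 replicate 2 gave 0.00546 with a fold change of -1.29, and M1 + PBM replicate 2 gave 0.0260 with -1.16, both past the thresholds of the study. The fold change lay between -1.29 and -0.62 over all 6 single omissions. Without both libraries numbered 3 it was -0.43, with a limma p of 0.224.

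Among the nuclear inducible genes Dusp4 was lower by -0.73 with an SE of 0.40 (limma p = 0.112, adjusted p = 0.90, exact permutation p = 0.2). Dusp5 was lower by -0.65 with an SE of 0.63 (limma p = 0.338, adjusted p = 0.90, exact permutation p = 0.4). With the replicate block the limma p of Dusp4 became 0.0172 (SE 0.20) and that of Dusp5 0.0315 (SE 0.21), both with an adjusted p of 0.58. These 2 members were thus past an unadjusted 0.05 in the blocked fit, in which 8.07% of all genes were. Dusp4 also had a limma p of 0.0168 with M1 replicate 3 left out (-1.10) and of 0.0420 with M1 + PBM replicate 2 left out (-1.02). For Dusp5 leaving out M1 replicate 2 gave a limma p of 0.0446 (-1.26). These 3 omissions put the gene past the thresholds of the study. In the other single omissions the limma p was 0.208 to 0.302 for Dusp4 and 0.139 to 0.783 for Dusp5. Over all single omissions Dusp4 lay between -1.10 and -0.48 and Dusp5 between -1.26 and -0.18. Without both libraries numbered 3 Dusp4 was at -0.85 with a limma p of 0.0234, and Dusp5 at -0.62 with 0.304. Dusp4 was the only member with an unadjusted p of at most 0.05 in that setting.

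Dusp1 and Dusp2 showed no difference larger than the spread between libraries. The fold change of Dusp1 was -0.27 with a 95% interval from -2.18 to 1.65 (limma p = 0.75, exact permutation p = 0.8), and that of Dusp2 was -0.45 with an interval from -2.63 to 1.72 (limma p = 0.63, exact permutation p = 0.7). These intervals leave room for a large change either way. The sign rested on M1 replicate 3, without which Dusp1 was at 0.57 and Dusp2 at 0.53, and Dusp1 was at 0.12 without M1 + PBM replicate 2. The block narrowed the intervals to -0.91 to 0.38 and -1.32 to 0.41.

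The cytoplasmic ERK phosphatases had the narrowest intervals of the 7 in the fit without the block. Dusp7 differed by -0.10 with an interval from -0.33 to 0.12 (limma p = 0.319, exact permutation p = 0.2), which lies within the log2 fold change of 1 set by the study. Dusp6, the only member with a positive value, differed by 0.33 with an interval from -0.29 to 0.94 (limma p = 0.245, exact permutation p = 0.4), also within that size. Its value was 0.56 without M1 + PBM replicate 2, with a limma p of 0.0452, and -0.027 without both libraries numbered 3. Dusp8 and Dusp10, below the minimum, gave exact permutation p-values of 0.8 and 0.4 for their FPKM in the same libraries.

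**Figure D2:**
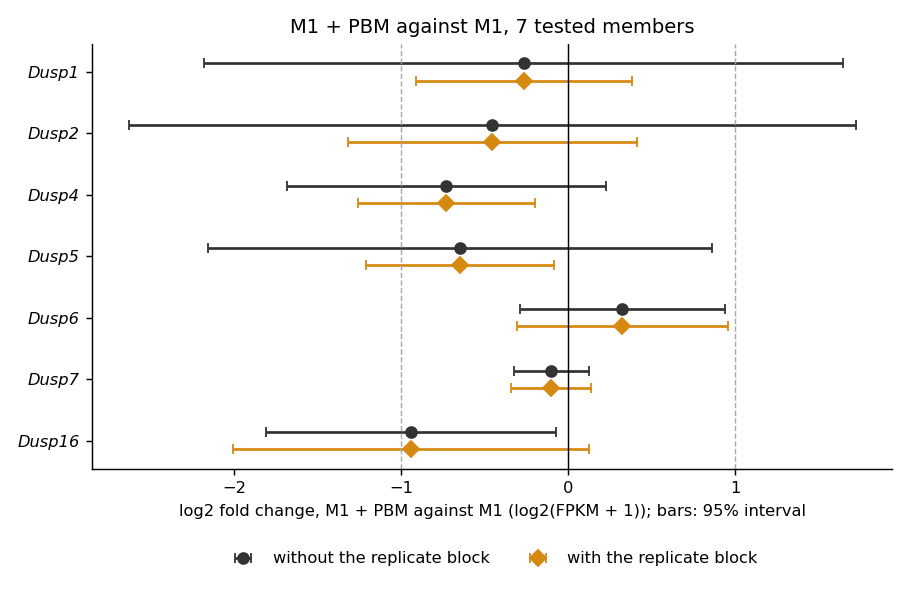
Log2 fold change of M1 + PBM against M1 on the log2(FPKM + 1) scale (horizontal axis) for the 7 tested phosphatase genes, with 95% intervals from limma without (circles) and with (diamonds) the replicate block. Dashed lines mark a log2 fold change of 1 in either direction. The interval of Dusp16 leaves out 0 only without the block, and those of Dusp4 and Dusp5 only with it.

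Read pair by pair, the PBM differences were uneven between replicates. For Dusp4 they were -1.31, -0.39 and -0.48 on the log2 scale in replicates 1, 2 and 3, and for Dusp5 they were -1.15, -0.099 and -0.70. Dusp10 was lower in each pair too, by -0.15, -0.022 and -0.46. Of the tested members 2 of 7 were lower in all 3 pairs, against 10.1% of all genes. Dusp16 was lower in replicates 1 and 3, by -1.04 and -1.96, and at 0.18 in replicate 2. Dusp1 and Dusp2 were each at their lowest in replicate 3, at -0.98 and -1.31, and above 0 in replicate 2, at 0.21 and 0.41. For Dusp6 the positive mean came from replicate 3, at 1.03, with 0.037 and -0.091 in the other pairs.

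**Figure D3:**
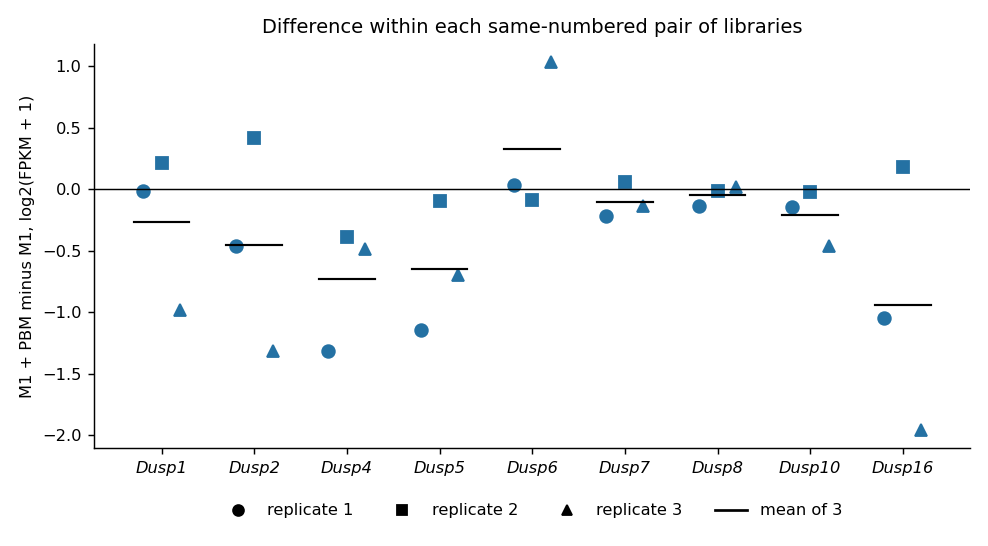
M1 + PBM minus M1 on the log2(FPKM + 1) scale (vertical axis) within each same-numbered pair of libraries for the 9 genes. Shapes are replicate numbers and the line is the mean of 3. Dusp4, Dusp5 and Dusp10 lie below 0 in all 3 pairs, and replicate 3 is the farthest from 0 for Dusp1, Dusp2, Dusp6, Dusp10 and Dusp16.

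Summed over the 9 genes, the phosphatase transcripts came to 76.9, 65.8 and 114 FPKM in M0, 81.5, 56.0 and 186 in M1, and 55.6, 55.7 and 98.4 in M1 + PBM. The groups overlapped, and M1 replicate 3 was the highest library by far. The make-up differed more clearly from M0 than the sum did. Dusp7 made up 26.8% ± 6.68 (SD, n = 3) of the sum in M0, 11.3% ± 5.70 in M1 and 13.8% ± 4.49 with PBM. Dusp16 went from 2.72% ± 0.485 in M0 to 10.3% ± 2.03 in M1 and 7.61% ± 4.16 in M1 + PBM. The cytoplasmic pair Dusp6 and Dusp7 summed to 32.6 ± 5.38 FPKM in M0, 16 ± 1.78 in M1 and 17.5 ± 2.72 in M1 + PBM. The 3 JNK and p38 phosphatases summed to 4.22 ± 0.973, 11.3 ± 5.47 and 5.29 ± 1.41, most of it Dusp16 in the stimulated groups. The 4 nuclear inducible genes summed to 48.9 ± 19.6, 80.5 ± 64.6 and 47.2 ± 23.1, and their SD in M1 was set by replicate 3, at 154 against 52.4 and 34.8.

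**Figure D4:**
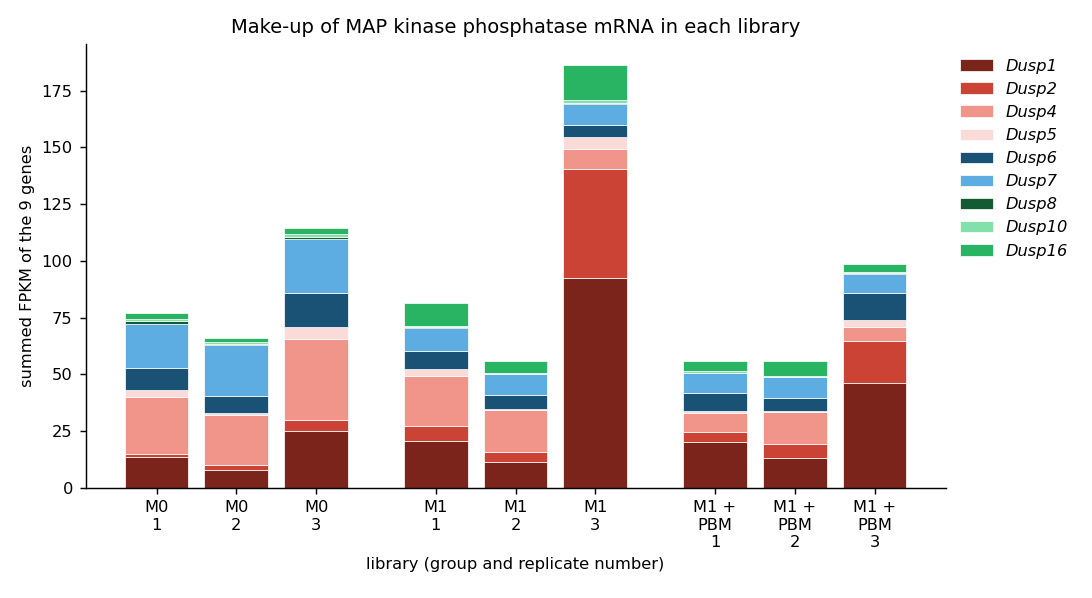
Summed FPKM of the 9 genes (vertical axis, from 0) in each of the 9 libraries, stacked by gene with nuclear inducible genes in reds, cytoplasmic ERK phosphatases in blues and JNK and p38 phosphatases in greens. M1 replicate 3 reaches 186 FPKM, mostly Dusp1 and Dusp2, and Dusp7 takes a smaller share in every stimulated library than in any M0 library.

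The libraries numbered 3 carried the highest value of most members in every group. This was so for 8 of 9 members in M0, where the third library was the highest for 39.0% of all genes, for 6 in M1 (27.9% of all genes) and for 6 in M1 + PBM (40.7%). In M1 the exceptions were Dusp4, Dusp6 and Dusp7, each highest in replicate 1. What the number 3 stands for is not given in the labels, and its part in the member levels was not tested.

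For the 3 members with the widest range over the 6 M1 and M1 + PBM libraries, the genes with the most similar profile were found by the root mean square difference of log2(FPKM + 1) after each gene was centred on its own mean. Dusp1, with a range of 2.92, lay closest to Gm15056 at 0.15, Rubcnl at 0.23 and 2010110E17Rik at 0.24. Dusp2, with a range of 3.19, lay closest to the endothelial lipase gene Lipg at 0.34, the heat shock gene Hspa1b at 0.34 and Dusp1 itself at 0.36. Dusp5, with a range of 2.26, lay closest to Bnip3 (0.16), a mitophagy gene, to Chmp3 (0.20), of the membrane-cutting ESCRT machinery, and to the vascular growth factor gene Vegfc (0.20). Lipg, like Dusp2, was highest in replicate 3 of both groups, at 17.2, 20.4 and 168 FPKM in M1 and 21.2, 18.0 and 43.8 in M1 + PBM. These are descriptions over 6 libraries, in which all genes share each library's depth and replicate number.

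The other genes of the pathway were read from 7 lists with 127 genes, of which 89 were tested. An unadjusted limma p of at most 0.05 was found for 5 that were lower and 7 that were higher. This was 13.5% of the 89, against 4.44% of all genes. The lists were chosen with earlier results of these data known, and no set test was made. Of the 89, 1 gene met the thresholds of the study, which 0.261% of all genes met. That gene was Fosl2, an AP-1 subunit of the immediate early list. It was at 10.9, 5.70 and 11.7 FPKM in M1 and 3.63, 3.34 and 4.81 in M1 + PBM, with no overlap and a fold change of -1.04 (SE 0.26, limma p = 0.00645, adjusted p = 0.90, exact permutation p = 0.1). The count of such genes in the lists was 0 when replicate 1 of either group or M1 replicate 3 was left out, and 4 when M1 replicate 2 was. Of the 20 genes tested from the immediate early list, 15 were negative and 5 positive, with a median of -0.23. Many genes of this list, though not all, are known for rapid induction by MAP kinase signals, as are Dusp1, Dusp2, Dusp4 and Dusp5. Over all genes 34.4% were negative. Those with an unadjusted limma p of at most 0.05 were Fosl2, Ier3, Phlda1 and Maff among the lower and Trib1 among the higher. Among all genes the share was 4.44%. With the replicate block 4 were lower and 3 higher at that level, against 8.07% of all genes. The lower were then Fosl2, Ier3, Egr1 and Atf3, and the higher Trib1, Fos and Etv5.

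The MAP kinases, on which the phosphatases act, and the kinases above them had list medians near that of all genes. Of 8 tested MAP kinases 2 were negative and 6 positive, with a median of 0.091. Mapk14, which encodes p38α and is a substrate of Dusp1, Dusp10 and Dusp16, was at 12.9, 14.4 and 8.09 FPKM in M1 and 17.9, 17.2 and 15.6 in M1 + PBM, a difference of 0.52 without overlap (SE 0.21, limma p = 0.0431, adjusted p = 0.90, exact permutation p = 0.1). Mapk6, an atypical MAP kinase, was at -0.15 (limma p = 0.382, exact permutation p = 0.5). Of 6 MAP2 kinases 3 were negative and 3 positive, and the largest, the JNK activators Map2k7 at 0.28 and Map2k4 at -0.18, had limma p-values of 0.478 and 0.463. Of 22 MAP3 kinases 8 were negative and 14 positive, with a median of 0.075. Map3k1, which feeds the JNK branch, was at 7.84, 8.87 and 7.66 FPKM in M1 and 11.2, 9.57 and 12.5 in M1 + PBM, a difference of 0.40 without overlap (SE 0.12, limma p = 0.0148, adjusted p = 0.90, exact permutation p = 0.1). Map3k5, a stress kinase also called ASK1, was at -0.39, with a limma p of 0.290 and one of 0.00630 with the replicate block.

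Of 9 MAPK-activated kinases 4 were negative and 5 positive, and 4 had an unadjusted limma p of at most 0.05, as did 4.44% of all genes. Of these Mknk1 (0.36) and Rps6ka1 (0.31) were higher and Mapkapk3 (-0.28) lower, each with a limma adjusted p of 0.90. Each was without overlap, as were 11% of all genes. Rps6ka3, encoding the ERK target RSK2, was at 0.50 (SE 0.20, limma p = 0.0412, adjusted p = 0.90, exact permutation p = 0.2) and Rps6ka2, another RSK gene, at -0.67 (limma p = 0.0935, exact permutation p = 0.2). Of 12 Ras and ERK inhibitors 4 were negative and 8 positive, with the Ras GTPase-activating gene Rasa3 at 0.50 (SE 0.17, limma p = 0.0229, adjusted p = 0.90, exact permutation p = 0.1) and Spred2 at 0.25 (limma p = 0.175, exact permutation p = 0.3). Of 12 other phosphatases, including atypical DUSPs, 2 were negative and 10 positive, with Dusp3 at 0.26 and Dusp23 at 0.20 (exact permutation p = 0.1 and 0.4). The medians of the 6 lists other than the immediate early genes lay between -0.019 and 0.21.

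**Figure D5:**
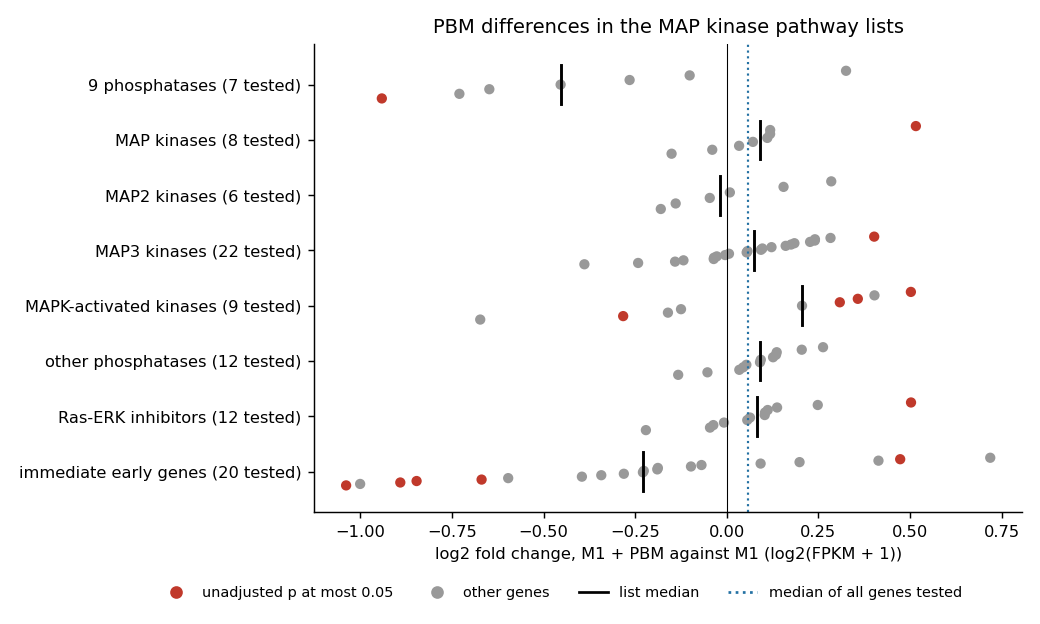
Log2 fold change of M1 + PBM against M1 on the log2(FPKM + 1) scale (horizontal axis) for every tested gene of the phosphatase group and the 7 pathway lists. Red points have an unadjusted limma p of at most 0.05, black bars are list medians and the dotted line is the median of all genes tested, 0.058. The phosphatases (median -0.45) and the immediate early genes (median -0.23) have medians below it, as do the MAP2 kinases at -0.019.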

How the data were processed

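RNA of 9 macrophage libraries was sequenced from strand-specific libraries. FPKM values were deposited by the authors as 2 tables, M0 in the first and M1 with M1 + PBM in the second, and the paper's methods name Cufflinks. The submitters' processing notes name Bowtie 0.12.2 and the build mm9. Of the 55655 rows, 320 carry assembler names, and 55154 were paired with a symbol of GENCODE release M21. Members and lists were chosen with earlier results of these data known. Low values did not resolve into whole reads, so no count test was run, and depths are estimates. At the depth picked for each library to give the highest share, 32.2% to 34.5% were whole within 0.05. An even spread would give 10% at a depth set beforehand. Fragment numbers per gene use the longest annotated transcript and are upper estimates.

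The comparison of PBM-treated with untreated M1 cells used linear models in limma (version 3.58.1, under R 4.3.3) moderated by empirical Bayes with a mean trend, on log2(FPKM + 1), for rows of at least 1 FPKM in at least 3 of 6 libraries, with Benjamini-Hochberg adjustment over 12238 rows. The fit was tested on simulated data with large changes and independent noise of the same size for all genes. That setting differs from the wide, covarying replicates of genes such as Dusp1 and Dusp2, so it does not show how the fit handles them. A two-sided exact permutation test was made for each member. A fold change on this scale understates the change of low genes. Deviations from the group means correlated between same-numbered M1 and M1 + PBM libraries (r of 0.157, 0.469 and 0.462 over genes). Between different numbers r lay between -0.491 and 0.0328. Deviations from a group mean cancel out, so the values between different numbers were partly fixed by the calculation. The numbers were taken to pair the libraries, and the labels state no pairing.

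Named genes were the 9 members, the genes of each list that met the thresholds of the study or else the 2 with the largest fold change in size, the 3 nearest profiles of the 3 widest members, Dusp9, and marker genes. Ier3, Phlda1, Maff, Trib1, Egr1, Atf3, Fos, Etv5, Mknk1, Rps6ka1, Mapkapk3 and S100a8, and the genes named under other observations, were picked once their values had been seen. The replicate block, omission of each library, a pseudocount of 0.1, quantile or median-of-ratios scaling, moderation without the trend, and a filter set to none or to a mean of 5 FPKM were the alternatives. Leaving out both libraries numbered 3 was added after seeing the data. Promoter windows were matched by symbol to RefSeq, and figures were drawn with matplotlib 3.10.9.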

Additional observations from a re-analysis of the deposited data

How the results depend on the processing

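The number of members with a negative PBM difference was 6 of 7 and lay between 4 and 6 when single libraries were left out. Reversed signs were found for Dusp1 without M1 replicate 3 (0.57), without M1 + PBM replicate 2 (0.12) and without both libraries numbered 3 (0.095), for Dusp2 without M1 replicate 3 (0.53), and for Dusp6 without both libraries numbered 3 (-0.027). The cause was not tested. When single libraries were left out Dusp1 ranged from -0.89 to 0.57 and Dusp2 from -1.06 to 0.53. The limma p of Dusp16 was 0.0504 with no minimum FPKM. The number of genes meeting the thresholds of the study was 32 (29 lower, 3 higher), 75 with a pseudocount of 0.1 (52 lower, 23 higher), and 27 to 89 when single libraries were left out, with 89 (50 lower, 39 higher) without M1 + PBM replicate 2 and 69 without M1 replicate 2. In the pathway lists it was 1, against 2 with a pseudocount of 0.1, 2 with the replicate block, 0 without both libraries numbered 3, and 0 to 4 when single libraries were left out. The replicate block gave 45 genes over the whole table. No member met these thresholds, and with the block this was the same. Dusp16 met them with a pseudocount of 0.1 (-1.07, limma p of 0.0377), with median-of-ratios scaling (-1.01, limma p of 0.0387) and without replicate 2 of either group, Dusp4 without M1 replicate 3 or M1 + PBM replicate 2, and Dusp5 without M1 replicate 2. Over both comparisons with M0, 7 member differences were without overlap, and 7 to 11 when single libraries were left out, with 11 without M0 replicate 2. With all libraries 50.6% of all genes were lower without overlap in M1 and 46.2% in M1 + PBM. Higher without overlap were 15.6% and 15.9%. These shares were not computed for the omissions, so those counts have no background. Under median-of-ratios scaling the Dusp7 differences from M0 were -0.69 and -0.88 and Dusp2 was also without overlap. With 3 libraries per group, members with wide replicates could not show a change of moderate size, and Dusp8 and Dusp10 rested on few fragments.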

Other observations

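Other genes of the MAP kinase pathway differed between M0 and the stimulated libraries in level, with no test across the tables. Dusp3, encoding an atypical phosphatase of ERK and JNK, was at 32.3, 39.9 and 23.5 FPKM in M0 and between 4.79 and 8.33 in the 6 stimulated libraries. Dusp28, another atypical family gene, went the other way, from 2.05, 2.59 and 2.31 FPKM in M0 to between 9.75 and 12.7. Map2k1, which encodes the ERK activator MEK1, was at 23.3 to 28.4 FPKM in M0 and 57.8 to 70.4 in the stimulated libraries, and Map3k8, the LPS-responsive activator of MEK1 known as TPL2, at 6.62 to 7.24 and 10.1 to 15.3. Mapkapk2, the p38 target that stabilises cytokine mRNA, was at 57.5 to 95.6 FPKM in M0 and 116 to 200.03 in the stimulated libraries. Map3k9, a mixed lineage kinase, was at 3.93 to 6.04 FPKM in M0 and 0.265 to 0.496 after stimulation. Of 15 other phosphatases with at least 1 FPKM in at least 3 of 9 libraries, 9 were lower and 2 higher without overlap in M1 than in M0, where 50.6% and 15.6% of all genes were. Counted the same way, 5 of 8 MAP kinases were lower and 2 higher. For MAP3 kinases it was 11 and 2 of 23, for MAPK-activated kinases 5 and 2 of 10. Ras and ERK inhibitors had 7 lower and 1 higher of 13, MAP2 kinases 1 and 2 of 6, and immediate early genes 6 and 6 of 22. The genes named above were picked by their values and do not stand for their lists.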
